A study of Mus musculus with 16 samples.

Results

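The transcripts described here were measured by 50 of the 25697 probes on a bead array (0.195%), which were dim in sham-operated mouse hearts and brighter after cardiac ischemia/reperfusion (I/R) in both genotypes studied. A probe was a member when its deposited intensity was at most 230 on each of the 8 sham arrays and its median after I/R was at least 1.4 times the sham median, in wild-type and in transgenic hearts separately. These values chose the members, so the rise after I/R is described below and not tested. Cardiac tissue came from C57BL/6J mice, with 1 array per mouse and 4 mice in each of 4 groups. The groups were wild-type littermates after a sham operation (WT_Sham) or after I/R (WT_IR), and mice overexpressing AKIP1 after a sham operation (TG_Sham) or after I/R (TG_IR). The 2 slides each held 2 arrays of every group. The labels and the design text used here name no promoter for the transgene, no age of the mice, no region of the heart and no time between operation and sampling. Replicate numbers only name the arrays and pair no mice.

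In I/R injury, the blood supply of heart muscle is blocked and then restored. Dying muscle cells release signals that draw leukocytes from the blood, and resident cells start repair programmes, so that transcripts scarce in the uninjured heart can become measurable. In bulk tissue, more cells of a type and more RNA per cell cannot be told apart. AKIP1 binds the catalytic subunit of protein kinase A and a subunit of NF-kB, a transcription factor of inflammatory genes, and the study asked whether its overexpression changes I/R injury. No table used here links the probe IDs to genes. The members therefore carry no gene names or roles here, the lists of leukocyte, matrix, stress and cell cycle genes could not be counted, the heart markers of the tissue and Akip1 itself could not be checked, and no sequence is shown.

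One array went against its label for these probes. The array labelled WT_IR replicate 2 lay within the range of the 8 sham arrays for 47 of the 50 members. It lay above that range for 2 members, by at most 5.09%, and below it for 1. It was the lowest of the 8 I/R arrays for all 50 members. Because the rule used the median of 4 arrays, 1 array at the sham level did not keep a probe out. Its label was kept, and the main results that rest on it are given with and without it.

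"Near background" describes the sham level of the members in part. The lowest intensity in the data was 161.5, and the array medians were 178.8 to 178.9 on all 16 arrays. Over the sham arrays, single values of the members ran from 169.1 to 229.2. The mean sham level was above the array median for 46 members, and more than 10% above it for 26. Ranked among all probes by mean sham level, the dimmest member stood at percentile 47, the median member at 66.3 and the brightest at 72.2. These ranks describe array signal, which depends on the probe as well as on the transcript, and the rule itself set the upper end. No detection p-values were used here, so none can be called absent in sham hearts.

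Few of the dim probes met the rule. At or under 230 on all sham arrays were 18586 probes, of which the members are 0.269%. Of the 5752 probes above 230 on all sham arrays, 299 met the same 2 ratios (5.2%), and 55 further probes that met them lay above 230 on some sham arrays only. These shares cannot be read as a difference in regulation, because the background still in the values shrinks the ratio of a dim probe more than that of a bright one.

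**Figure D1:**
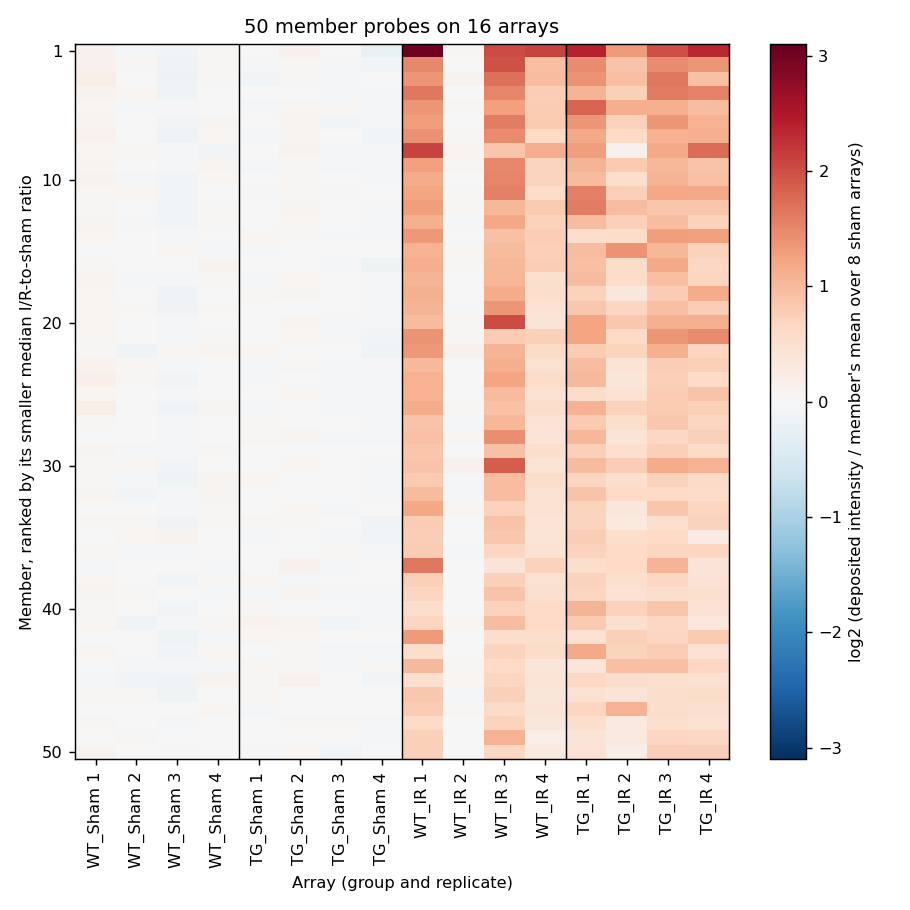
Each row is 1 of the 50 members, ranked by the smaller of its 2 genotype ratios, and each column is 1 array; colour gives the log2 ratio of the deposited intensity to the mean of that member over the 8 sham arrays. The I/R columns are red except WT_IR 2, which looks like the sham columns.

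The members rose to a modest level. Their highest value on any array ran from 291.0 to 1572, with a median of 446.7. Only 1 member passed 1000 and 20 passed 500, so 30 stayed at or under 500 on all 16 arrays. The ratio of the I/R median to the sham median ran from 1.4 to 4.16 in wild type (median 1.65) and from 1.41 to 4.54 in transgenic hearts (median 1.68). It was at least 2 for 8 members in wild type and for 13 in transgenic hearts, and the 8 were among the 13. Without WT_IR replicate 2, the wild-type ratios ran from 1.46 to 4.27 (median 1.89), and 19 members reached 2. After background correction with normexp, which removes part of the constant signal, the median ratio was 2.53 in wild type (3.17 without WT_IR replicate 2) and 2.76 in transgenic hearts.

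ILMN_3160750 had the largest ratios of all members in both genotypes. Its deposited intensity was 212.7, 190.4, 184.4 and 199.3 on WT_Sham replicates 1 to 4 and 195.9, 212.7, 192.5 and 169.6 on TG_Sham replicates 1 to 4. After I/R it was 1572, 201.3, 787.6 and 832.6 on WT_IR replicates 1 to 4 and 1011, 488.2, 781.9 and 979.5 on TG_IR replicates 1 to 4. Every I/R array other than WT_IR replicate 2 lay above all sham arrays, the lowest of them by 2.29 times the highest sham value. Its mean was 848.5 ± 561.8 in WT_IR and 815.2 ± 240.5 in TG_IR, against 196.7 ± 12.3 in WT_Sham and 192.7 ± 17.7 in TG_Sham (intensity, SD, n = 4 each). The WT_IR mean was 1064 ± 440.7 without replicate 2 (n = 3). The ratio of medians was 4.16 in wild type, 4.27 without WT_IR replicate 2, and 4.54 in transgenic hearts. With background correction these became 8.8, 9.08 and 9.77.

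ILMN_2705628 came next when members were ranked by the smaller of their 2 ratios. Its intensity was 213.0, 199.6, 176.9 and 203.2 on WT_Sham replicates 1 to 4 and 189.1, 201.6, 187.3 and 182.8 on TG_Sham replicates 1 to 4. After I/R it was 546.7, 196.8, 766.8 and 368.3 on WT_IR replicates 1 to 4 and 534.6, 355.8, 540.2 and 498.4 on TG_IR replicates 1 to 4. Here WT_IR replicate 3 was the highest array, whereas replicate 1 was the highest for ILMN_3160750. The ratio of medians was 2.27 in wild type, 2.71 without WT_IR replicate 2, and 2.74 in transgenic hearts. On slide 1 alone, with 2 arrays per group and WT_IR replicate 2 among them, the ratio was 1.8 in wild type and 2.28 in transgenic hearts. On slide 2 alone it was 2.99 and 2.81.

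**Figure D2:**
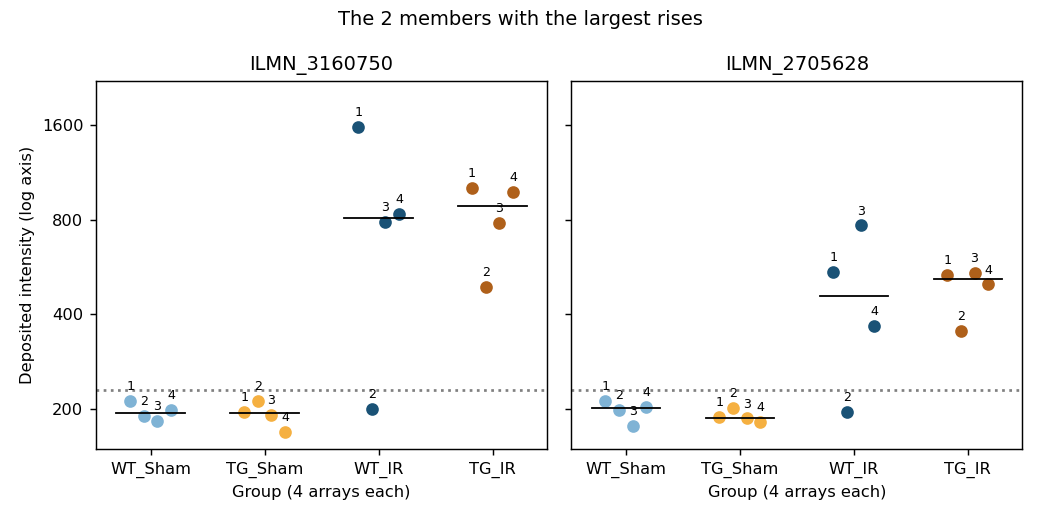
Deposited intensity (log axis) of the 2 highest-ranked members on each array, by group, with the replicate number above each point, the group median as a bar and the bound of 230 as a dotted line. WT_IR replicate 2 is at 201.3 for ILMN_3160750 and at 196.8 for ILMN_2705628, among the sham points, and the other 7 I/R arrays are above the line.

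Some members stood out by their spread or by their order of arrays. The member ranked 8 was at 769.6 on WT_IR replicate 1 and at 196.6 on TG_IR replicate 2, where its highest sham value was 195.2. The member ranked 15 was highest on TG_IR replicate 2, at 549.6, an array that was the lowest of the other 7 I/R arrays for 21 members. The member ranked 5 was highest on TG_IR replicate 1, at 660.4, and stood between 323.8 and 489.5 on the other I/R arrays without WT_IR replicate 2. The member ranked 12 was likewise highest on TG_IR replicate 1, at 560.1, and stood between 325.1 and 457.8 on those other arrays. The probe numbers of 1 pair of members, those ranked 5 and 12, are consecutive. Whether any probes of the set share a transcript cannot be told from the data used here.

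On all 50 members, the 7 I/R arrays other than WT_IR replicate 2 lay above all 8 sham arrays. Over all 25697 probes this held for 5.96%, and over the probes at or under 230 on all sham arrays for 2.91%. The rule used these arrays, so nothing is read from the difference. The lowest of the 7 was 1.007 to 2.295 times the highest sham value (median 1.311), and it was under 1.1 times that value for 2 members. limma's fit over all probes called 45 members higher after I/R in wild type at an adjusted p under 0.05 (3.56% of all probes were called higher) and 50 in transgenic hearts (7.4%). Both counts were 50 without WT_IR replicate 2, where 9.04% and 9.16% of all probes were called higher. With that array kept, the wild-type count was 4 without WT_Sham replicate 1, and 0 without WT_IR replicate 1, 3 or 4 or WT_Sham replicate 2, 3 or 4. These contrasts are those of the rule and are not read as support.

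The values around each threshold were close together. The wild-type ratio of the 3 members just inside was 1.4015, 1.4049 and 1.4174, and that of the 3 probes that missed the rule by this ratio alone and lay nearest was 1.3956, 1.3815 and 1.38. For the transgenic ratio the values were 1.4108, 1.4263 and 1.4307 inside and 1.3816, 1.3794 and 1.3747 outside. For the highest sham intensity they were 229.21, 228.3 and 226.81 inside and 230.96, 232.21 and 232.32 outside. Each ratio alone kept out 8 probes, and the sham bound alone kept out 354. The rule would give 56 members without WT_IR replicate 2, all 50 among them. The wild-type ratio of the 6 added probes was 1.315 to 1.396 with that array and 1.433 to 1.523 without it.

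The bounds set on each genotype were also read in the genotype that did not enter it. The probes share arrays and labelled RNA, so the counts in either direction are not independent. The rule used both genotypes, so these counts are described and not read as support. Chosen on wild-type arrays alone were 63 probes, all of which had a higher median after I/R than after sham in transgenic hearts. Of these, limma called 61 higher in transgenic hearts and 0 lower, against 7.4% of all probes called higher. Their median transgenic ratio was 1.64, where all probes had 0.998. Of the 63 probes, 54 reached the ratio of 1.4, 58 met the sham bound, and 50 met both (79.4%). By definition, these 50 are the members. The count of chosen probes moved with single wild-type arrays: without WT_IR replicate 1 or 3 it was 31 or 32, all of them called, and without WT_IR replicate 2 or 4 it was 94 or 93, with 93 and 86 called. Of the 94 probes chosen without WT_IR replicate 2, 61 reached the ratio of 1.4 in transgenic hearts, 85 met the sham bound, and 56 met both (59.6%). Their transgenic ratios ran from 1.16 to 4.54, with a median of 1.5. On slide 1 alone, with 2 arrays per group, 0 of 44 were called, and on slide 2 alone 95 of 104.

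Chosen on transgenic arrays alone were 72 probes, and again all 72 had a higher median after I/R than after sham in the other genotype. Their median ratio in wild type was 1.61, against 0.999 over all probes. In wild type, limma called 58 of the 72 higher and 0 lower, where 3.56% of all probes were called higher. Of the 72, 62 reached the ratio of 1.4, 58 met the sham bound, and 50 met both (69.4%), which are again the members. Without WT_IR replicate 2, limma called all 72, with 9.04% of all probes called, and 56 met both (77.8%), with a median ratio of 1.81. With that array kept, the wild-type count rested on every other wild-type array. It was 0, 0 and 1 without WT_IR replicates 1, 3 and 4, and 7, 0, 0 and 0 without WT_Sham replicates 1, 2, 3 and 4. Leaving out TG_IR replicate 3 gave 37 of 66, and the wild-type arrays fitted alone gave 0. The ratios do not depend on that estimate of spread, and their lowest value in wild type was 1.29.

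**Figure D3:**
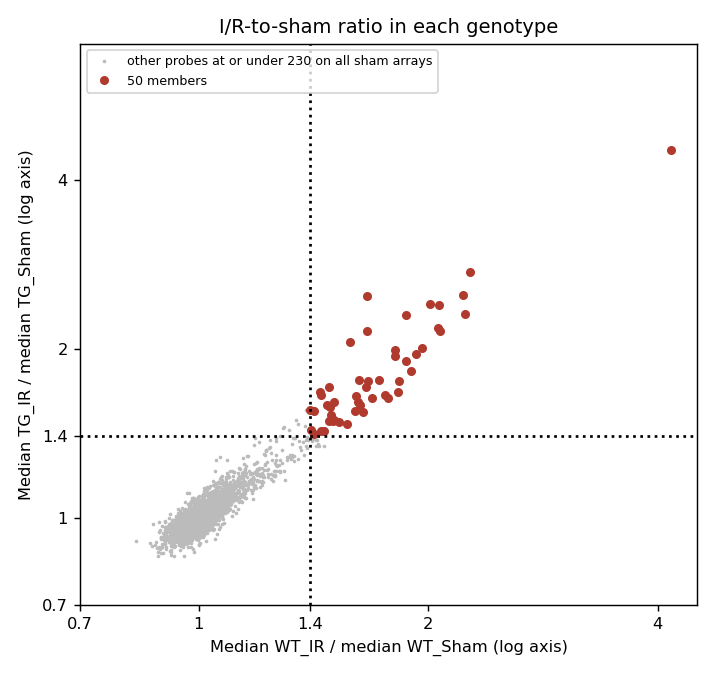
Ratio of the I/R median to the sham median of each probe at or under 230 on all sham arrays, in wild type (horizontal log axis) and in transgenic hearts (vertical log axis); dotted lines mark 1.4. The 50 members in red, chosen by lying beyond both lines, extend up to 4.16 and 4.54 and are high in both genotypes together.

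The members did not rise equally on the 7 other I/R arrays. The member median was 409.5, 400.8 and 295.0 on WT_IR replicates 1, 3 and 4, and 368.4, 303.9, 351.4 and 329.9 on TG_IR replicates 1 to 4. It was 196.5 on WT_IR replicate 2, while the sham arrays had medians of 186.1 to 207.8. Wild-type arrays thus gave both the highest values and, with WT_IR replicate 4, the lowest. The highest I/R array was WT_IR replicate 3 for 25 members and WT_IR replicate 1 for 15, and a transgenic array for 10. The lowest of the 7 was TG_IR replicate 2 for 21 members and WT_IR replicate 4 for 18. Kendall's W, which is 1 when all members rank the arrays alike and 0 when they share no order, was 0.517 over these 7 arrays. For the 299 brighter probes that met the same ratios it was 0.442. The median correlation between members across the 7 arrays was 0.6, with 5% of the 1225 pairs below -0.16 and 5% above 0.93. These are descriptions, since all members share the arrays and their labelled RNA.

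The members varied more between mice after I/R than after sham, which the rule favours, since it held every sham value to 230 or less and set no upper limit after I/R. The median SD within a group was 0.0699 in WT_Sham and 0.0485 in TG_Sham (log2 of the deposited intensity, 4 arrays each), against 0.0281 and 0.0273 over all probes. After I/R it was 0.214 in TG_IR and 0.516 in WT_IR, and 0.316 in WT_IR without replicate 2. Over all probes it stayed between 0.0255 and 0.0279 in these I/R groups. The 299 brighter probes raised likewise, which had no upper limit in sham, had 0.134 in WT_Sham and 0.111 in TG_Sham. After I/R they had 0.184 in TG_IR, 0.496 in WT_IR and 0.258 in WT_IR without replicate 2.

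The members also shared an order among the sham arrays, with small steps below the bound of 230. The highest sham array was WT_Sham replicate 1 for 25 members and TG_Sham replicate 2 for 13, and the lowest was WT_Sham replicate 3 for 27 and TG_Sham replicate 4 for 12. Each genotype therefore held a high and a low array. Kendall's W over the 8 sham arrays was 0.514 for the members and 3.25e-05 for the 18586 probes at or under 230. Nearly equal distributions of the arrays limit W over so many probes, and probes without a shared order also give a low W. Nothing is therefore read from the difference between these values. The median correlation across sham arrays was 0.59 between members and -0.007 between members and the other probes at or under 230. The median ratio of the members to their own sham mean ran from 0.954 on WT_Sham replicate 3 to 1.042 on WT_Sham replicate 1. The 299 probes brighter in sham and raised likewise ran from 0.907 on WT_Sham replicate 3 to 1.043 on WT_Sham replicate 4, with W of 0.237. Slide moved with this order: 47 of 50 members had a higher sham mean on slide 1 than on slide 2, by a median of 1.041 times, against 49.4% of all probes at or under 230. The part of the slide in the order was not tested.

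The rise was also described within each slide. The rule used these same arrays and the same ratio of 1.4, so nothing is read from the counts. Within slide 1, which carries WT_IR replicate 2, the median wild-type ratio of the members was 1.51 and 33 of 50 reached 1.4. Without that array, which leaves 1 WT_IR array on slide 1, the median was 2.02 and all 50 reached 1.4. Within slide 2 the median was 1.74 and 49 reached 1.4. In transgenic hearts the median ratio was 1.67 on slide 1 and 1.75 on slide 2, with 45 and 50 members at 1.4 or above.

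**Figure D4:**
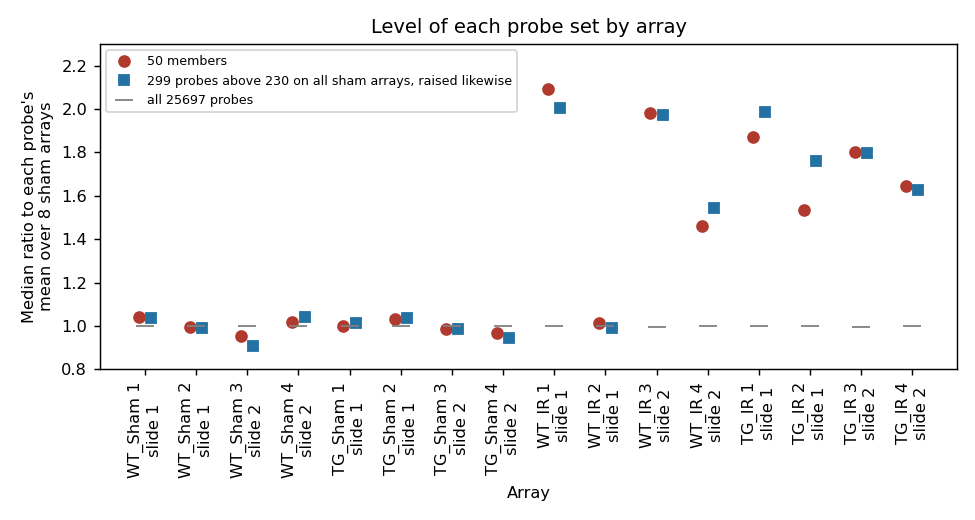
Median over probes of the ratio to each probe's own mean over the 8 sham arrays, for every array, in the 50 members (circles), in the 299 probes above 230 on all sham arrays and raised likewise (squares) and in all probes (dashes). The members stand at 1.46 to 2.09 on 7 I/R arrays and at 1.01 on WT_IR 2, while all probes stay near 1.

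Set beside the 299 brighter probes raised by the same ratios, the members had a median ratio to their own sham mean of 2.09 against 2.01 on WT_IR replicate 1, 1.98 against 1.97 on replicate 3 and 1.46 against 1.54 on replicate 4. On TG_IR replicates 1 to 4 they stood at 1.87, 1.53, 1.80 and 1.65, against 1.99, 1.76, 1.80 and 1.63. On WT_IR replicate 2 both sets were at the sham level, at 1.01 and 0.993. Whether the sets differ was not tested, as both were chosen by these ratios.

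Genotype was not part of the rule's contrasts, which set the same bounds on both genotypes, although a probe raised in only 1 genotype could not become a member. After I/R, limma called 0 of the 50 members as different between transgenic and wild-type hearts, where 0.0% of all probes were called. At an unadjusted p under 0.05 there was 1 member, against 4.92% of all probes, and the smallest adjusted p of a member was 0.955. With all arrays, the difference (TG_IR minus WT_IR, log2 of the background-corrected intensity) was above 0 for all 50 members, from 0.01 to 0.71 with a median of 0.24. The median SE of a member was 0.31, larger than the median difference. Over all probes, 48.6% were above 0.

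That direction rested on 1 array. Without WT_IR replicate 2, the difference was above 0 for 11 members and below 0 for 39, from -0.45 to 0.29, with a median of -0.18 and a median SE of 0.21. Again 0 members were called (0.00389% of all probes were), 0 had an unadjusted p under 0.05, and the smallest adjusted p was 0.999. Within slide 1 the median difference was 0.48 and within slide 2, which lacks that array, 0.01, with 46 and 26 members above 0. In no member did the 4 TG_IR arrays lie apart from the WT_IR arrays, with or without replicate 2, where 2.56% and 5.05% of all probes had no overlap. The members had been chosen with WT_IR replicate 2 in the wild-type median. Its low values asked more of the other WT_IR arrays, which favours wild type once replicate 2 is left out. How much of the turn in direction comes from this choice was not tested.

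ILMN_3160750 showed the same turn. Its difference after I/R was 0.42 (SE 0.60, limma's adjusted p = 0.976) with all arrays and -0.43 (SE 0.30, limma's adjusted p = 0.999) without WT_IR replicate 2. For ILMN_2705628 it was 0.38 (SE 0.44) with all arrays and -0.21 (SE 0.26) without that array. None of these differences passed limma's test, and the standard errors leave room for differences in either direction.

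**Figure D5:**
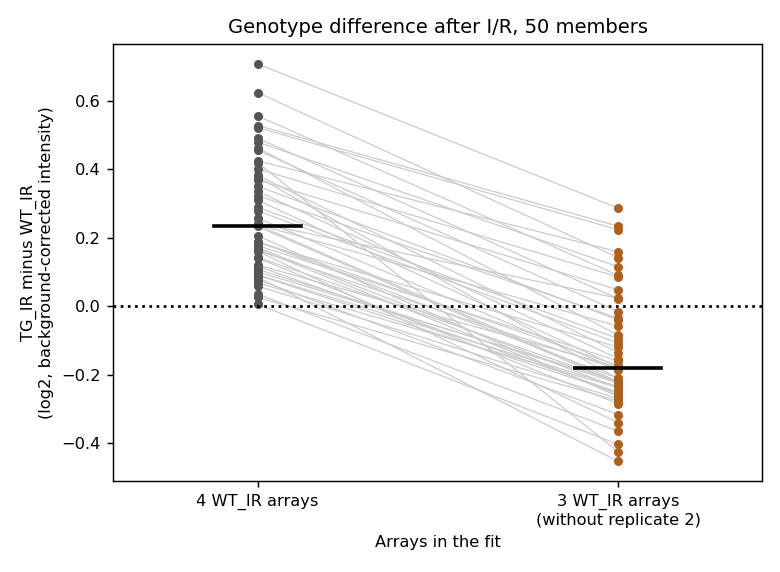
TG_IR minus WT_IR difference (log2 of the background-corrected intensity) of each of the 50 members, fitted with all 4 WT_IR arrays (left) and without WT_IR replicate 2 (right); lines join the same member and black bars are medians. All 50 points lie above 0 on the left, and 39 lie below 0 on the right.

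The I/R response was also compared between genotypes. The rule asked for a rise in both, so probes raised in 1 genotype only were kept out beforehand, and the lack of calls says nothing about such probes. limma's genotype by surgery interaction called 0 members, where 0.0% of all probes were called, with 0 members at an unadjusted p under 0.05 (4.15% of all probes) and a smallest adjusted p of 0.999. The interaction, the transgenic rise minus the wild-type rise, was above 0 for 48 members with a median of 0.29 log2 (median SE 0.44). Without WT_IR replicate 2 it was above 0 for 11, with a median of -0.13 (median SE 0.28), while 48.9% of all probes were above 0. Again 0 members and 0.0% of all probes were called, and 0 members had an unadjusted p under 0.05 (4.12% of all probes). On the deposited intensities, the transgenic ratio was the larger for 33 members with that array and for 14 without it. Over all probes it was the larger for 49.5% with that array and 50.2% without it. The members were chosen with WT_IR replicate 2 included, so the values without it carry the same limit as the genotype difference after I/R.

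After sham surgery, no member passed the test between genotypes. limma called 0 of 50, where 0.0156% of all probes were called, and 0 had an unadjusted p under 0.05, against 5.97% of all probes. The difference (TG_Sham minus WT_Sham) was above 0 for 18 members and below 0 for 32, from -0.22 to 0.15 log2 with a median of -0.03, and the median SE was 0.31. In 0 members did the sham arrays of the genotypes lie apart, where 3.83% of all probes did. The fit that left out WT_IR replicate 2, and with it part of the common spread estimate, again called 0 members (0.0233% of all probes), and 0 had an unadjusted p under 0.05. The rule kept all sham values within a narrow range, which limits any difference seen here. limma's spread estimate was also common to the sham and I/R groups. The members' median SD (log2 of the deposited intensity) was 0.516 in WT_IR and 0.214 in TG_IR, against 0.0699 in WT_Sham and 0.0485 in TG_Sham. The SE here thus held spread from after I/R, and the absence of calls does not show equal sham levels. A fit of only the sham groups also called 0 members.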

How the data were processed

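Per the labels' protocols, RNA from cardiac tissue was amplified and biotinylated with an Illumina TotalPrep kit. The deposited values are linear probe intensities, which the authors had brought to nearly equal distributions on all arrays. The sources used here name no software, background correction or probe filter. A background level remains in the values, so fold changes of dim probes are compressed. Levels and ratios were taken from the deposited intensity as it stands. For tests, the intensity was corrected with normexp (offset 50), log2 transformed and not normalized again, and 4 group means were fitted to all 16 arrays and 25697 probes with limma 3.58.1 in R 4.3.3, with Benjamini-Hochberg adjustment over all probes (threshold 0.05). Log2 values were computed here, none was deposited. The fit was tested on simulated data with independent noise and no array that goes against its label. That test therefore does not cover the case of WT_IR replicate 2 or of probes that vary together. With 4 arrays in a group, their number limits the precision. The members, the lists and the comparisons were chosen with earlier results of these data known. The 2 members named are those with the largest value of the smaller genotype ratio, and others are given by that rank. Those ranked 5, 8, 12 and 15 were chosen after their values were seen. Pairing of probes with genes was planned and could not be made. Alternatives covered the thresholds, background correction, normalization, slides, array weights and each array left out.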

Additional observations from a re-analysis of the deposited data

How the results depend on the processing

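The rule gave 39 members with a sham bound of 220 and 69 with 250, 77 with a ratio of 1.3 and 33 with 1.5, 48 with means, 34 on slide 1 alone and 76 on slide 2 alone. With single arrays left out it gave 29 to 56. TG against WT after I/R, after sham and the interaction called 0 members with limma in each alternative run (0 to 0 over single arrays left out). In wild type, I/R calls of members were 7 without background correction, 0 with only the groups compared, 0 on slide 1 alone and 0 to 50 over single arrays left out. In transgenic hearts they were 0 on slide 1 alone and 47 to 50 over arrays left out. Transgenic calls of probes chosen in wild type were 0 on slide 1 alone, 95 on slide 2 alone and 31 to 93 over arrays left out. Wild-type calls of probes chosen in transgenic hearts were 11 without background correction, 0 with only the groups compared, 0 on slide 1 alone, 96 on slide 2 alone and 0 to 72 over arrays left out. Members higher in TG_IR than in WT_IR numbered 30 with array weights, 26 on slide 2 alone, 11 to 50 over arrays left out and 10 with slide as a block once WT_IR replicate 2 was left out, an alternative chosen after seeing the data. The median difference ran from -0.181 to 0.463 over arrays left out. Fitting just the compared groups keeps the differences and changes the estimate of spread; for the other alternatives the cause was not tested. No paired analysis was possible because sample numbers run through all groups, so no number recurs.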

Other observations

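For every member and group, the 4 arrays were checked for 1 array standing far from the rest of its group, by Dixon's criterion; by chance about 1 check in 20 finds one. The 200 checks found 8, and chance would give 10. The members share arrays, so the checks are not independent and nothing is read from the 2 numbers. Of the 8, 3 were on TG_IR replicate 1, 2 on TG_Sham replicate 2, 2 on WT_Sham replicate 3 and 1 on TG_Sham replicate 4. None fell on WT_IR replicate 2, whose group also spread widely among replicates 1, 3 and 4. The same check of the 2 named members and of the member median found none.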
